A study of Mus musculus with 5 samples.

Results

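Cadherin, claudin and other tight junction genes were followed through the cells of the early mouse eye region. The set was defined by gene symbol alone: all numbered Cdh and Cldn genes, the numbered Tjp genes, Marveld1 to Marveld3, Ocln, Epcam, F11r and Cgn. It holds 56 of the 27998 genes in the matrix, namely 23 cadherins, 23 claudins and 10 others. No measured value entered the choice.

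Classical cadherins are membrane proteins that join neighbouring cells at adherens junctions, mostly by binding the same cadherin on the next cell, and are linked to actin through catenins. Claudins form the strands of tight junctions, which seal epithelial and endothelial sheets, while the cytoplasmic proteins encoded by Tjp1, Tjp3 and Cgn scaffold those strands. In the head of the embryo, neuroepithelium is known for Cdh2, surface ectoderm for Cdh1 and Cdh3, mesenchyme for Cdh11 and endothelium for Cdh5 and Cldn5.

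The samples were ocular areas of wild-type C57BL/6J mouse embryos at 12, 16, 20, 24 and 26 somites, with 1 embryo per stage and both optic areas of that embryo pooled. Cells were freed with trypsin and their RNA was read at its 3′ end in droplets. The deposited matrix carries 5 libraries, told apart by a number on each cell barcode that names no stage. They are called libraries 1 to 5, are given one by one, and were not put in order of age.

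Of 8194 barcodes, 8106 were kept, with a median of 20713 to 30922 UMIs (distinct RNA molecules) per barcode across libraries, and pairs of libraries shared 0 to 7 barcode sequences. Cells were clustered without the 56 genes and named from marker lists that hold none of them. The classes used most were optic vesicle-like (1853 cells), ventral neuroepithelium-like (908), other forebrain-like (900), surface ectoderm-like (306), cranial neural crest mesenchyme-like (1364), head mesoderm-like (448), migratory neural crest-like (376) and endothelium-like (388). Smaller classes were other placode-like (69 cells), neuron-like (30), lens placode-like (29, all from library 5), myeloid-like (26) and erythroid-like (253), while endoderm-like (11) and megakaryocyte-like (12) cells were too few to use. Kept out of every class were 789 cells with little Malat1, a nuclear RNA (6.46% to 16.5% of a library), 261 cells with markers of both neuroepithelium and crest (0% to 7.61%) and 83 unnamed cells of library 5 (4.78% of it). Levels are CPM, the share of a gene in all UMIs of its class, scaled as counts-per-million. UMIs count 3′ ends and were not divided by gene length, so levels were compared between classes and libraries and not between genes. With 1 embryo per stage there is no replicate, no p-value is given, and each 95% interval covers counting error only.

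All 56 genes could be accounted for. At least 20 CPM was reached in some class by 18 of them, among them Cdh1, Cdh2, Cdh3, Cdh5, Cdh11, Cldn3, Cldn4, Cldn5, Cldn6, Cldn7, Cldn9, Cldn11, Cldn13, Epcam, F11r, Cgn and Tjp1. Another 11 peaked between 5 and 20 CPM. Of these, Cldn8, Cldn10, Cldn12, Marveld2, Ocln and Tjp3 peaked in surface ectoderm-like cells, Cdh4 in lens placode-like cells, Cdh7 and Cdh20 in neuron-like cells, Cdh19 in migratory neural crest-like cells and Marveld1 in crest mesenchyme-like cells. A further 23 stayed under 5 CPM in every class, and Cdh16, Cldn17, Cldn18 and Cldn24 had 0 UMIs in all 8106 cells.

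**Figure D1:**
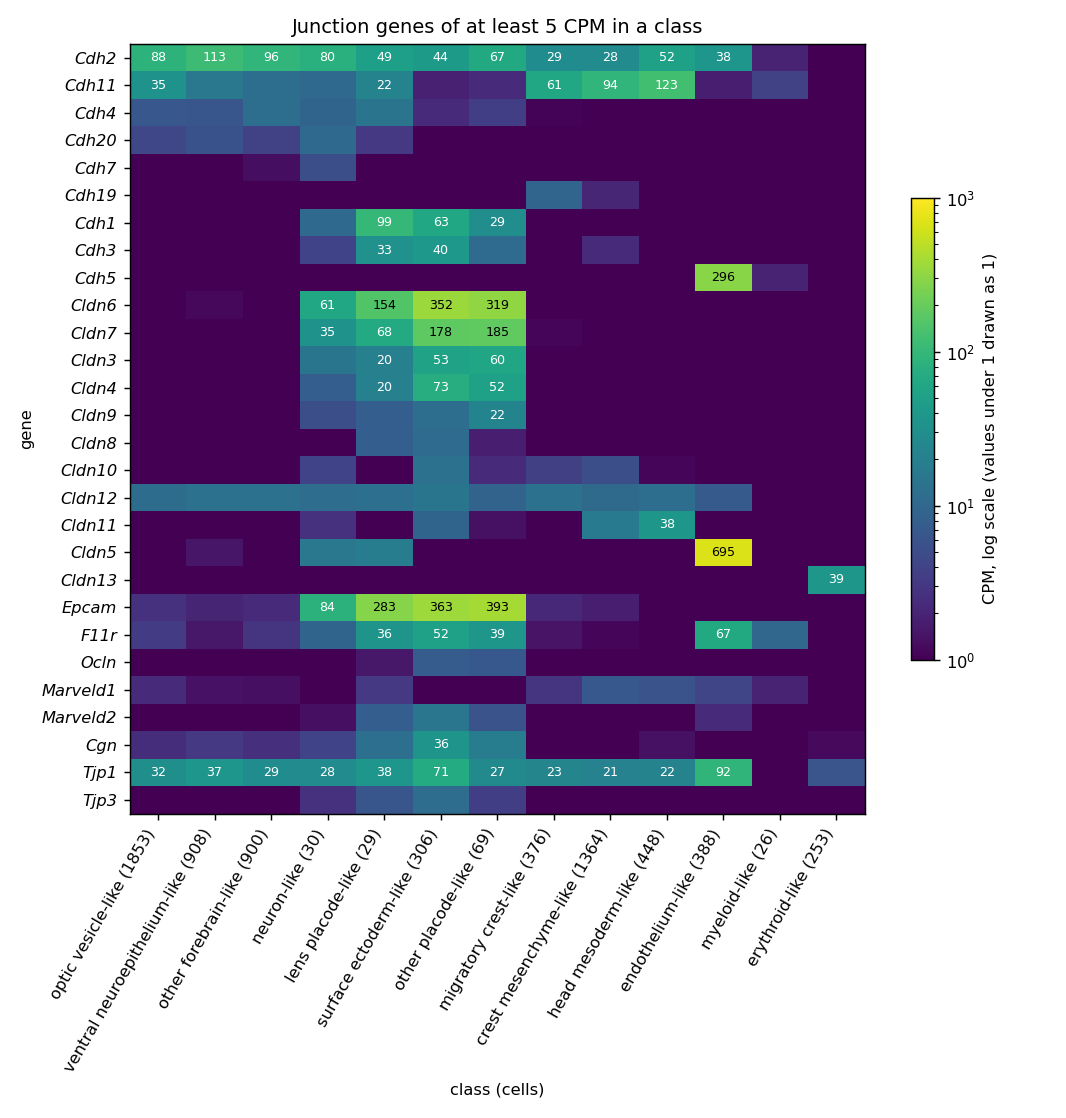
Levels of 28 junction genes that reached at least 5 CPM in a class of at least 20 cells; rows are genes, columns are classes with their cell number, colour is CPM on a log scale and numbers are printed from 20 CPM upward. Cdh2 and Tjp1 reached 20 CPM in 11 of the 13 classes each, whereas Cdh5, Cldn5 and Cldn13 did so in 1 class each.

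Taking 20 CPM as the limit, surface ectoderm-like and lens placode-like cells had 12 of these genes each. Surface ectoderm-like cells had 3 cadherins (Cdh1, Cdh2, Cdh3) and 4 claudins (Cldn6, Cldn7, Cldn4, Cldn3), together with Epcam, Tjp1, F11r and Cgn. Lens placode-like cells had the same 4 claudins and 4 cadherins (Cdh1, Cdh2, Cdh3, Cdh11), and other placode-like cells had 5 claudins, Cldn9 being the fifth. Optic vesicle-like cells had 2 cadherins (Cdh2, Cdh11) and 0 claudins, with Tjp1 as the other gene past the limit. Ventral neuroepithelium-like and other forebrain-like cells had 1 cadherin, Cdh2, and 0 claudins. Crest mesenchyme-like and migratory neural crest-like cells held the same genes as the vesicle, Cdh2, Cdh11 and Tjp1. Head mesoderm-like cells had these and the single claudin Cldn11. Endothelium-like cells had Cdh5 and Cdh2 with Cldn5, and erythroid-like cells had none of the cadherins and the single claudin Cldn13. Cldn12 lay between 7.11 CPM (endothelium-like) and 14.5 CPM (surface ectoderm-like) in every one of the 8 main classes, under the limit in each.

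The first comparison set the optic vesicle against the surface ectoderm. One sub-cluster of the surface ectoderm-like class was led by Pitx1, Hesx1 and Lhx3 (60 cells), and the position of these cells relative to the vesicle was not known. A gene was called when its ratio was at least 2, its interval left out 1, its higher class had at least 20 CPM, and it went the same way in every library with at least 20 cells of both classes. Of the 38 members with at least 10 UMIs, 2 were called higher in optic vesicle-like cells and 11 lower. Among all 14691 genes with that many UMIs, 0.667% were called higher and 2.2% lower. The median log2 ratio was -0.77 over the 38 members and -0.02 over all tested genes.

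Cdh11 and Cdh2 were the cadherins on the vesicle side. Cdh11, a type II cadherin best known from mesenchyme, had 34.7 CPM in optic vesicle-like and 1.86 CPM in surface ectoderm-like cells, an 18.6-fold difference (interval 11.8 to 31.5). Cdh2, the neural cadherin, had 87.6 and 43.5 CPM, a ratio of 2.01 (1.82 to 2.23). The call for Cdh2 sat at the 2-fold limit: the ratio was 1.90 without library 1 and 1.81 without library 5. In optic vesicle-like cells Cdh2 had 83.5, 118, 76.0, 67.9 and 91.9 CPM in libraries 1 to 5, each above the surface ectoderm-like value of the same library.

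The genes on the ectoderm side were close to absent from the vesicle. Cdh1, the epithelial cadherin, had 8 UMIs in all 1853 optic vesicle-like cells (0.121 CPM) against 62.8 CPM in surface ectoderm-like cells, 521-fold lower (263 to 1212). Cdh3, the placental cadherin, was 103-fold lower (68.9 to 159). The claudins Cldn6, Cldn7, Cldn4 and Cldn3 were 754-fold (530 to 1111), 738-fold (453 to 1294), 607-fold (306 to 1411) and 58.6-fold (44.8 to 77.9) lower. Epcam, an epithelial adhesion molecule that binds Cldn7, was 135-fold lower (116 to 158). The sizes for Cldn3 and Epcam rest on library 5, which held 45 of the 60 Cldn3 UMIs and 126 of the 178 Epcam UMIs of the vesicle. Cldn3 was 220-fold, 181-fold, 197-fold, 65.3-fold and 11.6-fold lower in libraries 1 to 5, and Epcam 1372-fold (on 1 UMI), 302-fold, 359-fold, 151-fold and 77.8-fold. Without library 5 the pooled levels were 0.00638 and 0.00346 of the ectoderm ones. Cdh11 was 28.4-fold higher in the vesicle without library 3.

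Genes of the junction's scaffold and of its accessory membrane proteins differed less. F11r, which encodes the junctional adhesion molecule A, was 15.7-fold lower (13.4 to 18.5) and Cgn, the scaffold cingulin, 14.6-fold lower (12.1 to 17.8). Tjp1, which encodes the scaffold ZO-1, kept 31.5 CPM in the vesicle and was 2.25-fold lower (2.06 to 2.45). The summed level of the 12 surface ectoderm markers in optic vesicle-like cells was 14.9 to 47.4 CPM across libraries, highest in library 5, with 1 to 6 of them at 0 UMIs, against 1422 CPM in surface ectoderm-like cells. The part of surface ectoderm RNA in the low vesicle levels was not tested.

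**Figure D2:**
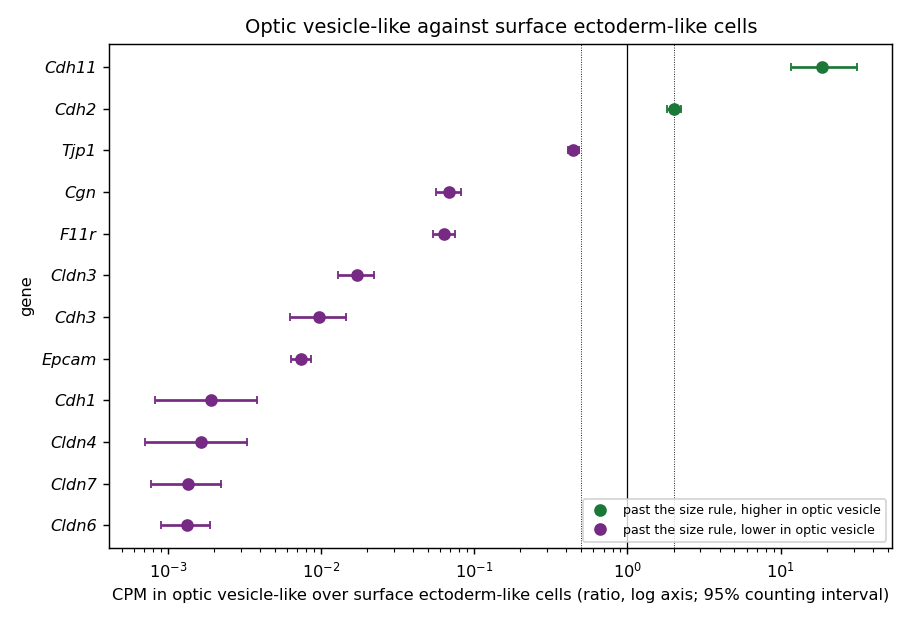
Ratio of CPM in optic vesicle-like over surface ectoderm-like cells for 12 members past 20 CPM in either class, on a log axis, with 95% counting intervals; dotted lines mark 2-fold. Cdh11 and Cdh2 lie to the right, Tjp1 just past the 2-fold line to the left, and Cdh1, Cldn4, Cldn7 and Cldn6 521-fold or more to the left.

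Some of these genes are neighbours in the genome. In the GENCODE annotation of GRCm38, Cldn4 and Cldn3 are neighbours on chromosome 5 with 39279 bases between them. Cldn6 (chromosome 17, 23679249 to 23682446, plus strand) and Cldn9 (23682584 to 23684026, minus strand) meet tail to tail with 137 bases between their 3′ ends. Cdh3 (106510891 to 106557297) lies before Cdh1 (106603351 to 106670246) on the same strand of chromosome 8. Cldn9 had its highest level, 22.5 CPM (16.7 to 29.6), in other placode-like cells, where Cldn6 had 319 CPM. Whether reads were counted by strand is not given in the sources used here, so reads running past either 3′ end could be assigned to the other gene.

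The start regions of the 11 members lower in the vesicle than in surface ectoderm were read for known motifs. RefSeq windows on GRCm38.p6, 250 bases before to 50 after a start, were at hand for 8 of the 11: Cgn, Cldn3, Cldn4, Cldn6, Cldn7, Epcam, F11r and Tjp1. The E-box CAGGTG, the letters bound by repressors of the Snail and Zeb families, was searched on both strands, where it reads CACCTG on the other. It was found in the windows of 6 of the 8 genes (Cldn3, Cldn4, Cldn6, Cldn7, Epcam, F11r) and in 20.2% of all 32851 windows. The Cldn3 match lies 31 bases after the start. The 8 genes have 9 windows, and a Cldn7 window has no match. Counts of genes and shares of windows, here and below, are therefore not the same measure. AACCGGTT, a motif of Grainyhead-like factors, which reads the same on both strands, was in 0 of the 8 genes' windows and in 0.146% of all windows. GCCNNNGGC, the AP-2 motif, also the same on both strands, was in those of 3 of the 8 genes and in 16.6% of all windows. These matches describe letters and not binding. Epcam, Cldn4 and F11r have matches before the start in both the RefSeq and the GENCODE gene model. For Epcam and Cldn4 the 250 bases before the start are shown, 5′ to 3′, with each CAGGTG or CACCTG in capitals.
Epcam (chr17:87635729-87635978, plus strand): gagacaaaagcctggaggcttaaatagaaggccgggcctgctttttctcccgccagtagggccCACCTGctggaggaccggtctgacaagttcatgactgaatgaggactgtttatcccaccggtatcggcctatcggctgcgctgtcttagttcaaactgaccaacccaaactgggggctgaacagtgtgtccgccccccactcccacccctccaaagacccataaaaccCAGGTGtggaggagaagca
Cldn4 (chr5:134946935-134947184, minus strand): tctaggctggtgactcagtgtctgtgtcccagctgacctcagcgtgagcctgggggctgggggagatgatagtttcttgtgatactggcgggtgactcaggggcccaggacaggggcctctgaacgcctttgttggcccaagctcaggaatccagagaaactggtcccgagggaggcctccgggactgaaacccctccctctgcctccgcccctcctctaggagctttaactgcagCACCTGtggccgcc
In Epcam the capitals begin 187 and 19 bases before the start and in Cldn4 14 bases before it. Cldn4 has another match 11 bases after the start, outside the bases shown. Of the genes of these factor families that were listed, Zeb2 and Zeb1 were 15.9-fold (10.9 to 24.2) and 6.82-fold (4.95 to 9.67) higher in optic vesicle-like than in surface ectoderm-like cells, and Grhl2 was 394-fold lower (152 to 1459), with 4 UMIs in the vesicle. Snai1 was low in both, at 1.25 CPM in optic vesicle-like and 3.41 CPM in surface ectoderm-like cells, and was not called. Snai2 and Grhl1, also listed, were not called either. Whether any of these factors acts on the members was not tested.

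Partner genes were read from 6 lists. Of 17 tested adherens junction partners, 1 was higher in optic vesicle-like cells and 3 lower, among them Jup, the plakoglobin gene, 20.3-fold lower (16.1 to 26.0). Of 24 tight junction and polarity partners 2 were higher, Ildr2 (10.1-fold) and Jam3 (2.32-fold), and 3 lower, led by Crb3, a polarity gene, 72.2-fold (54.9 to 96.4). Of 8 tested desmosome genes 0 were higher and 3 lower: Perp (102-fold), Dsp, which encodes desmoplakin (63.7-fold), and Pkp2 (4.21-fold). Of 16 protocadherins and atypical cadherins 1 was higher and 1 lower. Of 13 epithelial and mesenchymal state regulators 2 were higher (Zeb1, Zeb2) and 2 lower, Grhl2 and Esrp1 (310-fold, 172 to 624), and of 6 adhesion proteases and their inhibitors 0 were higher and 4 lower, led by St14 (537-fold, 181 to 2622, on 3 UMIs in the vesicle).

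Surface ectoderm was next set against mesenchyme, for which crest mesenchyme-like and head mesoderm-like cells were pooled to 1812 cells. Of 37 tested members 11 were higher in surface ectoderm-like cells and 2 lower, against 2.5% and 1.24% of all 14184 tested genes. The higher members included Cdh1, Cdh3, Cldn3, Cldn4, Cldn6, Cldn7, Epcam, F11r, Cgn and Tjp1. This comparison shares its surface ectoderm-like cells with the one before. The largest ratios rest on very few mesenchymal UMIs: Cldn4 on 2 (1805-fold, interval 498 to 14938), Cdh1 on 3 (1034-fold, 352 to 5026) and Cldn6 on 16 (1087-fold, 668 to 1903). Cdh1 was 2252-fold higher without library 2, Cldn3 436-fold (199 to 1194) in all and 705-fold without library 4, and Cldn4 2896-fold without library 3 and 2933-fold without library 5. Cdh3 was 20.9-fold higher (16.6 to 26.4), with 1.93 CPM in mesenchyme. Tjp1 was 3.31-fold higher (3.00 to 3.65).

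Cdh11 and Cldn11 were the members lower in surface ectoderm. Cdh11 had 101 CPM in mesenchyme and was 54.3-fold lower (34.3 to 91.7) in surface ectoderm-like cells. Cldn11, a claudin known from myelin and the testis, had 22.0 and 9.30 CPM, 2.36-fold lower (1.91 to 2.96). Without library 5 the mesenchymal level of Cldn11 no longer passed 20 CPM and the call ended. Of the lists, Snai1, which encodes a repressor of Cdh1, was 26.9-fold (19.1 to 39.1) lower in surface ectoderm and Zeb2 11.5-fold (7.86 to 17.5) lower, while Esrp1, an epithelial splicing regulator, was 1267-fold higher (349 to 10494) on 2 mesenchymal UMIs. Crb3 was 437-fold higher (211 to 1092), and St14, a membrane protease gene, 1199-fold on 1 mesenchymal UMI (213 to 47539). In all, 5 of 17 adherens junction partners were higher and 1 lower, 3 of 23 tight junction and polarity partners, 3 of 8 desmosome genes and 3 of 6 protease genes were higher and 0 lower, 1 of 15 protocadherins was higher and 1 lower, and 2 of 12 state regulators were higher and 3 lower.

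Surface ectoderm-like cells differed among the 5 libraries in 9 of the 14 members that reached 20 CPM in one of them, by at least 2-fold between the highest and the lowest library with an interval above 1. Of all 6579 genes that reached 20 CPM in one of them, 34.2% did so. The libraries held 30, 87, 80, 68 and 41 of these cells. Cdh2 had 24.3, 55.3, 53.2, 43.0 and 7.11 CPM in libraries 1 to 5. Library 5 was the lowest, on 6 UMIs, and library 2 exceeded it 7.77-fold (3.49 to 21.5). Cdh3 had 30.001, 34.1, 28.6, 42.1 and 103 CPM, and Cdh1 had 63.2, 72.3, 46.4, 52.9 and 109 CPM. For both the highest value was in library 5, where Cdh2 was lowest. Library 5 exceeded library 3, the lowest, 3.60-fold (2.60 to 5.0) for Cdh3 and 2.35-fold (1.77 to 3.12) for Cdh1.

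The claudins of the surface ectoderm-like class had their highest values in library 1. Cldn3 had 131, 51.9, 32.3, 46.7 and 21.3 CPM in libraries 1 to 5, so that library 1 stood 6.15-fold (3.77 to 10.6) above library 5. Cldn4 had 155, 73.4, 52.4, 54.1 and 68.8 CPM, and Cldn6 had 609, 373, 317, 266 and 262 CPM. Cldn7 and Epcam stayed within 2-fold, at 153 to 282 CPM and 309 to 409 CPM. Cldn9, F11r and Tjp3 also passed 2-fold between libraries, with highest levels of 25.1, 70.0 and 24.3 CPM. In library 1, 21 of the 30 cells lay in a sub-cluster of 33 cells led by Wnt6 and Krt8, with 141 CPM of Cldn3, 151 CPM of Cldn4 and 525 CPM of Cldn6 and with 0 cells from libraries 4 and 5, so the difference between libraries is also one between sub-clusters. The summed 12 surface ectoderm markers were 2667 CPM in library 1, where the claudins were highest. They were 1918 CPM in library 5, which had the lowest Cldn3 and Cldn6, and 1075 to 1287 CPM in the others. The summed 10 optic vesicle markers in surface ectoderm-like cells were 383, 567, 488, 460 and 237 CPM in libraries 1 to 5, lowest where Cdh2 was lowest, with 2 to 5 of the 10 at 0 UMIs. Of the 60 cells led by Pitx1, Hesx1 and Lhx3, 0 came from library 5, so these libraries differ in sub-clusters too. Whether surface ectoderm-like cells make these RNAs themselves was not tested, so the sum is no measure of vesicle RNA alone. The part of either marker sum in the differences between libraries was not tested.

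**Figure D3:**
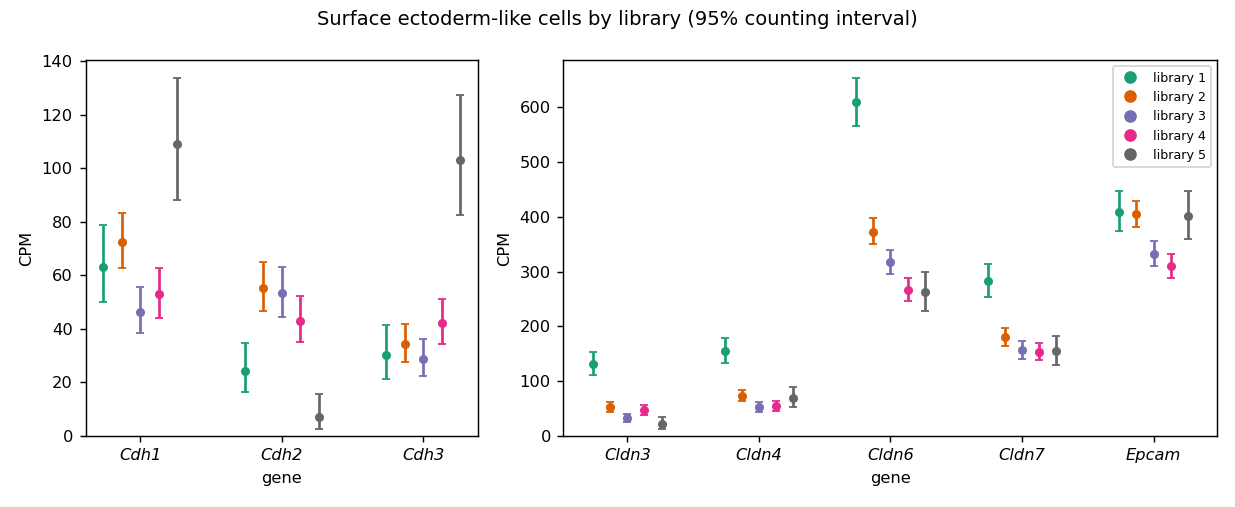
CPM of 3 cadherins (left) and of 4 claudins and Epcam (right) in surface ectoderm-like cells, 1 point per library with its 95% counting interval. Library 5 has the lowest Cdh2 (7.11 CPM) and the highest Cdh1 and Cdh3 (109 and 103 CPM), and library 1 has the highest Cldn3, Cldn4 and Cldn6.

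Sub-clusters of the ectoderm showed the same range of Cdh2 and Cdh3. A sub-cluster of 32 surface ectoderm-like cells led by Sostdc1, Wnt6 and Trp63, of which 24 came from library 5, had 5.36 CPM of Cdh2 and 125 CPM of Cdh3. One of 53 cells led by Pitx1 and Aldh1a3 had 76.5 CPM of Cdh2 and 16.4 CPM of Cdh3, with 1 cell from library 1 and 0 from library 5. Other placode-like cells, whose leading genes include Dlx5 and Espn, had 66.5 CPM of Cdh2, 29.2 CPM of Cdh1 and 11.2 CPM of Cdh3. These sub-clusters were chosen for mention after their values were seen.

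Lens placode-like cells came from library 5 alone and were read beside the 41 surface ectoderm-like cells of that library. Cdh1 had 99.1 CPM (76.2 to 127) and 109 CPM (87.9 to 134), intervals that overlap. Cdh2 was 48.8 CPM (33.1 to 69.2) in lens placode-like and 7.11 CPM (2.61 to 15.5) in surface ectoderm-like cells, and Cdh11 22.0 CPM (12.0 to 37.0) and 1.19 CPM (0.030 to 6.61). In the other direction Cdh3 was 33.0 CPM (20.5 to 50.5) and 103 CPM (82.6 to 127), Cldn6 154 CPM (125 to 188) and 262 CPM (229 to 299), and Cldn4 20.5 CPM (10.9 to 35.0) and 68.8 CPM (52.2 to 88.9). The Cdh2, Cdh11, Cdh3, Cldn6 and Cldn4 intervals of these classes did not overlap. Sums of vesicle markers were higher in lens placode-like cells, as Cdh2 and Cdh11 were. The 10 optic vesicle markers summed to 1109 CPM in lens placode-like cells (1 at 0 UMIs) and to 237 CPM in the surface ectoderm-like cells of library 5 (5 at 0). The 7 neural retina markers summed to 532 and 147 CPM. Hmx1, a neural retina marker, was also among the leading genes of the lens placode-like cluster, so these sums do not measure vesicle RNA alone. The 8 lens placode markers summed to 481 CPM (2 at 0) and 134 CPM (3 at 0). The part of vesicle RNA in these levels was not tested. Clustering of 29 and 41 cells from a single embryo gives no replicate of this difference.

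Within single cells, claudins and cadherins were read as shares of cells with a UMI, with each cell thinned to 10000 UMIs so that depth was equal. Cells under that number were left out, 7 of the 306 surface ectoderm-like cells and 44 of the 1853 optic vesicle-like cells. Cldn6 was seen in 92.3% of surface ectoderm-like cells (98.0% before thinning), Epcam in 94.3% (99.3%) and Cldn7 in 76.3% (92.5%). Erythroid-like cells, which should lack these genes, had a Cldn6 UMI in 0.395% (0.791% before thinning), Cldn7 in 0.395% (1.19%) and Epcam in 0% (1.58%). The median depth before thinning was 27785.5 UMIs in surface ectoderm-like and 42576 UMIs in erythroid-like cells. The erythroid-like shares of Cldn6 and Cldn7 after thinning rest on 1 of 253 cells each. Optic vesicle-like cells (median 30056 UMIs) had Cldn6 in 0.442% after thinning (8 of 1809 cells) and 1.35% before it. Cldn7 was at 0.166% there (3 of 1809 cells, 0.756% before thinning). These counts are too few to place either share above or under the erythroid-like one. The source of these few vesicle UMIs was not tested. Epcam was at 2.38% (7.50% before thinning), above the erythroid-like 0%, a count of 0 of 253 cells whose exact interval runs up to 1.45%.

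Cdh1 and Cdh2 were found in the same surface ectoderm-like cells at about the rate that their separate shares give. Of 299 thinned cells 37 had both (12.4%, exact interval 8.86 to 16.7), 98 Cdh1 alone, 59 Cdh2 alone and 105 neither, and the product of the separate shares, 45.2% and 32.1%, is 14.5%. Of 68 other placode-like cells 12 had both (17.6%, 9.46 to 28.8). In optic vesicle-like cells 2 of 1809 had both. Cldn6 and Cldn7 were together in 214 of 299 surface ectoderm-like cells (71.6%, 66.1 to 76.6), with a product of 70.4%. Doublet calls had removed 66 barcodes beforehand, and the part of doublets that were not called was not tested.

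**Figure D4:**
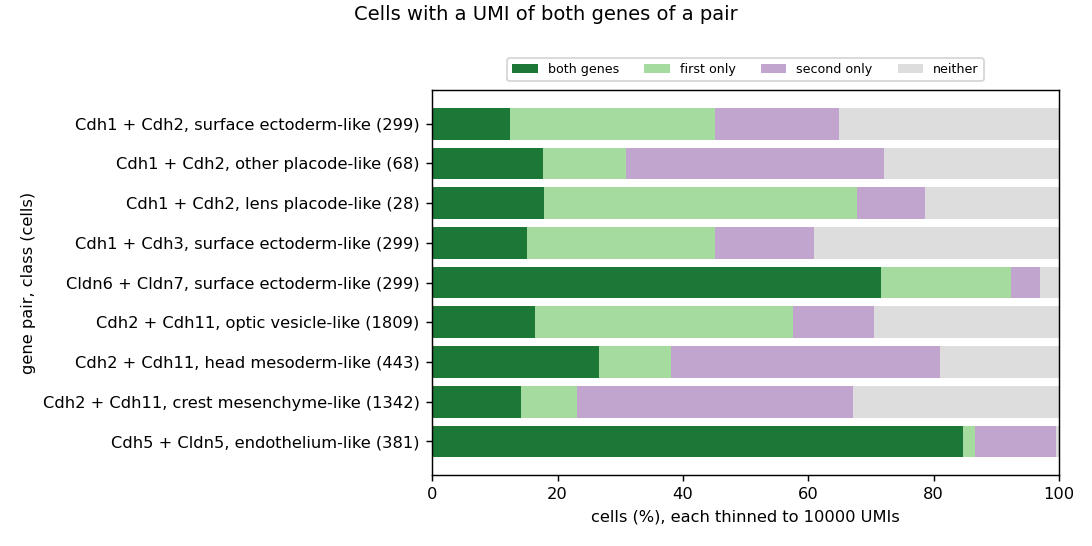
Share of cells, each thinned to 10000 UMIs, with a UMI of both genes of a pair (dark green), of the first only, of the second only or of neither; the number of cells stands beside each class. Cdh5 with Cldn5 in endothelium-like cells (84.8%) and Cldn6 with Cldn7 in surface ectoderm-like cells (71.6%) fill most of their bars, and Cdh1 with Cdh2 in surface ectoderm-like cells 12.4%.

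Among the neural classes, Cdh11 was the member that set the optic vesicle apart. Against other forebrain-like cells 1 of 37 tested members was called higher and 0 lower, where 0.314% and 0.205% of all 14648 tested genes were called. Cdh11 had 34.7 CPM in optic vesicle-like and 12.3 CPM in other forebrain-like cells, 2.82-fold higher (2.52 to 3.16). Within libraries 1 to 4, which hold both classes, the ratio was 1.75, 1.73, 1.77 and 3.24, so all 4 had more in the vesicle and 1 of them passed 2-fold. The levels of Cdh11 in optic vesicle-like cells were 21.2, 23.6, 22.2, 38.9 and 48.9 CPM in libraries 1 to 5, highest in libraries 4 and 5, and library 5 held 818 of the 1853 cells. Without library 5 the pooled ratio was 2.14. Cdh2 went slightly the other way, at 0.769, 0.819, 0.939 and 0.805 of the forebrain level in libraries 1 to 4, without a call. All 6 partner lists had 0 genes called in either direction here, of 16 adherens junction, 24 tight junction and polarity, 7 desmosome, 16 protocadherin, 9 state regulator and 5 protease genes tested.

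Ventral neuroepithelium-like cells, which carry Nkx2-1 and Shh, had 15.9 CPM of Cdh11, 2.18-fold lower than the vesicle (1.96 to 2.43). This was the 1 call among 38 tested members, with 0 higher, beside 0.415% lower and 0.429% higher of all 14692 tested genes. It ended without library 5, at 0.604 of the vesicle level. Of the lists, 2 of 17 adherens junction partners were lower in ventral cells, Ablim1 (2.24-fold) and Pvrl3 (2.08-fold), and 0 of the other lists' genes were called. Cdh2 had 113 CPM in ventral cells and was 1.21, 1.24, 1.27 and 1.35 times the vesicle level in libraries 1 to 4. Cdh2 and Cdh11 were in the same cell in 296 of 1809 thinned optic vesicle-like cells (16.4%, 14.7 to 18.2), near the 16.9% that the product of their shares gives. Crest mesenchyme markers summed to 63.2, 47.3, 52.7, 59.8 and 47.8 CPM in optic vesicle-like cells of libraries 1 to 5, with 0 or 1 of the 12 at 0 UMIs, and to 1366.0 CPM in cranial neural crest mesenchyme-like cells.

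Within the optic vesicle of library 5, 143 pigment epithelium-like and 292 neural retina-like cells could be told apart. None of 22 tested members passed the rule in either direction, beside 0.768% higher and 0.464% lower of all 12493 tested genes. Cdh2 had 70.2 and 87.9 CPM, 1.25-fold lower (1.1 to 1.43) in pigment epithelium-like cells, and Cdh11 had 44.4 and 57.8 CPM, 1.30-fold lower (1.1 to 1.55). Of the partner lists, Cgnl1, which encodes paracingulin, was 2.64-fold (1.96 to 3.56) and Pcdh9 2.72-fold (2.11 to 3.50) higher, and Pcdh17 3.56-fold lower (2.51 to 5.19).

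The vesicle and the mesenchyme around it differed in both of their shared cadherins, in opposite directions. Of 37 tested members 1 was higher in optic vesicle-like cells and 2 lower, beside 1.27% and 1.65% of all 15069 tested genes. Cdh2 was 2.58-fold higher (2.45 to 2.73) and Cdh11 2.92-fold lower (2.77 to 3.07), each in 5 of 5 libraries. Cldn11 was 23.5-fold lower (18.2 to 30.9), a call that ended without library 5 because its mesenchymal level then missed 20 CPM. Members of the lists included Celsr2, an atypical cadherin of planar polarity, 11.9-fold higher (9.90 to 14.3), Ildr2 10.8-fold higher (9.06 to 13.1), Crb2 6.65-fold higher (5.77 to 7.70) and Snai1 73.2-fold lower (59.0 to 92.1). Of 16 adherens junction partners 4 were higher and 2 lower, and of 24 tight junction and polarity partners 3 were higher and 0 lower.

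Inside the mesenchyme, with libraries pooled, Cldn11 was lower in the crest part. Cldn11 was the 1 called member of 25 tested, 16.9 CPM in crest mesenchyme-like and 38.2 CPM in head mesoderm-like cells, 2.26-fold lower (2.0 to 2.55), with 0 higher. Of all 13486 tested genes 0.742% were called lower and 0.341% higher. Head mesoderm-like cells had 29.4, 55.8, 39.4 and 26.0 CPM of Cldn11 in libraries 1 to 4. Crest mesenchyme-like cells had 2.59, 4.25, 22.4 and 36.9 CPM in libraries 2 to 5, so that libraries 4 and 5 stood far above 2 and 3, 14.3-fold (9.36 to 22.8) from lowest to highest. Within library 4 the crest level was 0.865 of the head mesoderm level (0.571 to 1.37), an interval that holds 1. Library 5 held 2 head mesoderm-like cells, too few for a value. Without library 2 or without library 3 the call ended, at 0.634 and 0.557 of the head mesoderm level, while without library 5 it was 0.266. Of the lists, Pcdh7 (4.68-fold) and Cxadr (2.26-fold) were also lower in crest mesenchyme-like cells.

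Cdh2 in crest mesenchyme-like cells was 19.5, 16.9, 22.4 and 53.5 CPM in libraries 2 to 5, highest in library 5. In libraries 2, 3 and 4 it was 3.45-fold, 2.21-fold and 2.27-fold lower than in head mesoderm-like cells of the same library, while the pooled difference was 1.84-fold (1.66 to 2.03) and missed the rule. It passed the rule without library 5, whose mesenchyme is almost all crest. Cdh11 was 88.3, 77.7, 86.0 and 122.5 CPM in crest mesenchyme-like cells of libraries 2 to 5, and 130, 162, 104 and 88.2 CPM in head mesoderm-like cells of libraries 1 to 4. Different sub-clusters hold the crest cells of different libraries, so a difference between libraries there is also one between sub-clusters. The summed head mesoderm markers in cranial neural crest mesenchyme-like cells were 209, 173, 315 and 589.5 CPM in libraries 2 to 5, with 2 to 4 of the 12 at 0 UMIs. They were highest in library 5, as Cldn11 and Cdh2 were. Foxp2, on that list, was a leading gene of a crest mesenchyme-like sub-cluster with 376 of its 379 cells from library 5. Ebf1, also on it, was a leading gene of another with 186 of its 200 cells from library 4. These sums therefore do not measure head mesoderm RNA alone, and the part of the markers in the Cldn11 and Cdh2 levels was not tested.

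Migratory neural crest-like cells, marked by Sox10 and Ngfr, differed by more than 2-fold between libraries in all 5 members that reached 20 CPM in one of them, among them Cdh2, Cdh11, Cdh19 and Tjp1, and so did 49.7% of all 6172 genes that reached it. The libraries held 241, 34, 46, 24 and 31 of these cells, so that values in libraries 2 to 5 rest on few cells. Cdh11 had 73.0, 54.4, 32.7, 19.7 and 5.87 CPM in libraries 1 to 5, and library 5 had 3 UMIs. Library 1 exceeded library 5 by a ratio of 12.4 (4.24 to 60.5). Cdh2 had 21.7, 31.1, 24.99, 77.3 and 104 CPM, so that libraries 4 and 5 stood above the other three, 4.77-fold (3.47 to 6.47) between library 5 and library 1. Cdh19, a type II cadherin known from Schwann cell precursors, had 7.93, 5.82, 10.1, 19.7 and 29.3 CPM, high in the same libraries as Cdh2.

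Against crest mesenchyme-like cells the pooled comparison called 0 of 27 tested members in either direction, beside 0.267% higher and 0.75% lower of all 13472 tested genes. It sets 376 cells that are mostly from library 1 against crest mesenchyme with 7 cells from that library. Within libraries 2, 3, 4 and 5 Cdh11 was 1.63-fold, 2.37-fold, 4.37-fold and 20.9-fold lower in migratory neural crest-like cells. Cdh2 was 1.60, 1.48, 3.44 and 1.94 times the mesenchymal level in them. Without library 1 the pooled Cdh11 level was 0.345 of the mesenchymal one, past the rule. With libraries 2 to 5 weighted equally, Cdh2 was at 2.11 times and Cdh11 at 0.301 of the mesenchymal level, both past the rule. Of the lists, Zeb2 was 2.73-fold higher and Mllt4, the afadin gene, 2.99-fold lower in migratory neural crest-like cells. The cells of libraries 1 and 2 lay mainly in a pair of sub-clusters led by Plcg2 and Sox10, and those of libraries 3 to 5 mainly in a sub-cluster of 91 cells led by Phactr1, Sox10 and Ngfr. The 8 migratory neural crest markers summed to 389, 415, 527, 872 and 1815 CPM in libraries 1 to 5, and the 12 crest mesenchyme markers to 927, 1245, 733, 573 and 804 CPM. The part of these marker differences in the cadherin values was not tested.

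**Figure D5:**
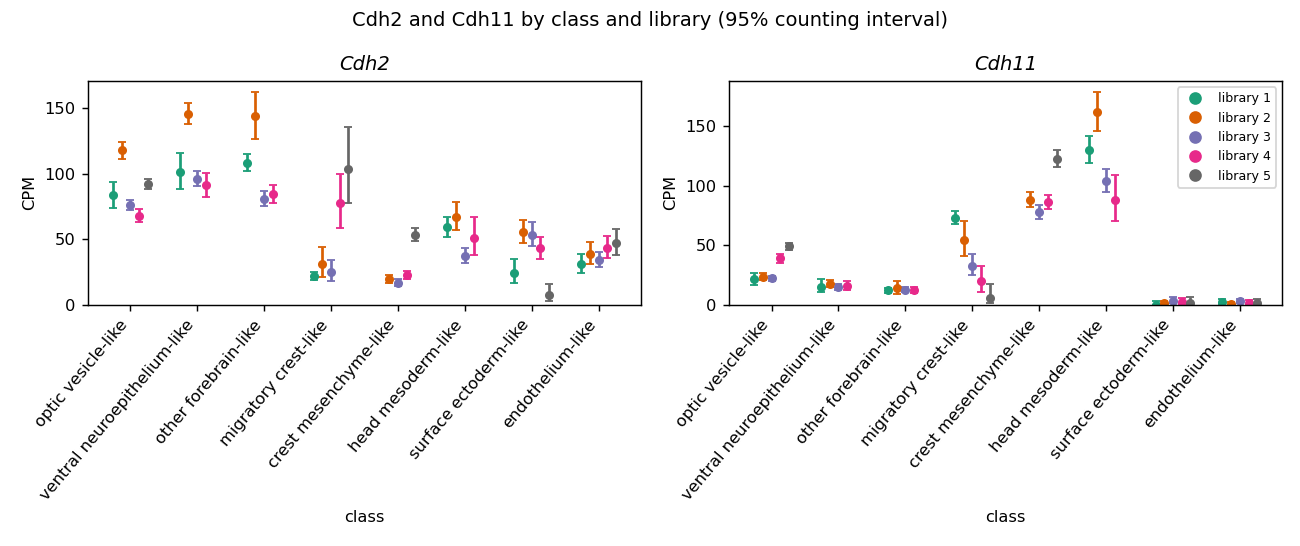
CPM of Cdh2 (left) and Cdh11 (right) in 8 classes, 1 point per library with at least 20 cells of the class, with its 95% counting interval. In migratory neural crest-like cells Cdh2 is highest in libraries 4 and 5 (77.3 and 104 CPM) while Cdh11 is lowest there (19.7 and 5.87 CPM); surface ectoderm-like and endothelium-like cells have little Cdh11 in every library.

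Endothelium-like cells were set against mesenchyme for the vascular junction genes. Against mesenchyme 4 of 27 tested members were higher and 2 lower, beside 5% and 2.65% of all 14037 tested genes. Cldn5, the main claudin of endothelium, had 695 CPM and was 1225-fold higher (847 to 1844), and Cdh5, vascular endothelial cadherin, had 296 CPM and was 636-fold higher (423 to 1004). Cdh5 was 238, 357, 228, 260 and 485 CPM in libraries 1 to 5, and Cldn5 767, 756, 674, 691 and 588 CPM. Library 5 thus had the highest Cdh5, 2.13-fold (1.95 to 2.34) over library 3, and the lowest Cldn5. Both were seen in 323 of 381 thinned cells (84.8%, 80.8 to 88.2).

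F11r was 70.6-fold (52.6 to 96.8) and Tjp1 4.28-fold (3.94 to 4.65) higher in endothelium-like cells, each in 5 of 5 libraries. Cdh11 was 56.8-fold lower (37.8 to 89.7) and Cldn11 47.4-fold lower (21.7 to 130), the latter a call that ended without library 5, at 0.00987 of the mesenchymal level. Cdh2 had 38.0 CPM in endothelium-like and 33.9 CPM in mesenchymal cells, above mesenchyme in libraries 2, 3 and 4 and below it in libraries 1 and 5. Of the lists, Esam, an endothelial adhesion molecule, was 811-fold (499 to 1421), Pcdh17 76.8-fold (58.8 to 102) and Jup 19.2-fold (16.7 to 22.2) higher, and Pcdh18 23.8-fold lower (15.4 to 39.1). Of 16 adherens junction partners 4 were higher and 0 lower, and of 21 tight junction and polarity partners 3 were higher and 1 lower.

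Blood cells held a single gene of the set at 20 CPM or more. Cldn13, a mouse claudin, had 423 UMIs in 253 erythroid-like cells (38.9 CPM, 35.2 to 42.7) and 1 UMI in 1853 optic vesicle-like cells. Its erythroid-like level was 36.3, 41.3, 46.1, 31.3 and 37.9 CPM in libraries 1 to 5, without a 2-fold difference. Neuron-like cells, 30 cells that clustered with the ectoderm and were led by Neurog3, Neurog2 and Tubb3, had 79.6 CPM of Cdh2 and 10.6 CPM of Cdh1, with 83.6 CPM of Epcam and 61.1 CPM of Cldn6.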

How the data were processed

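Raw UMI counts, whole numbers of molecules per gene and barcode, were deposited by the authors in a single matrix. The submitters' processing notes name Cell Ranger and give the genome as mm10 and GRCm38. No source used here gives the version or how cells were called. The deposited gene table and barcode list hold names, from which genes and the library number were read. All 5 samples were left without a stage, since the library number names none.

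A barcode stayed if it had 1000 genes or more and no more than 10% of its UMIs were mitochondrial (22 left out). Scrublet in scanpy 1.11.5, run per library at an expected rate of 0.06, removed 66 doublets (0.808%; 0.403% to 1.46% by library). Cells were scaled to 10000 UMIs, reduced to 2000 variable genes and 30 components, and clustered by the Leiden method at resolution 1 (15 neighbours), without integration, members or partner lists. Neural, crest and ectodermal clusters were clustered again, giving 48 clusters. A name needed at least 3 markers 2-fold up after adding 5 CPM. How markers were scored, and which clusters were kept out, was set after seeing the data. Sums of UMIs over a class gave CPM. Ratios carry exact intervals for Poisson counts and shares exact Clopper-Pearson ones. PCR and droplet losses lie outside them.

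The members, the partner lists and the tests were chosen with earlier results of these data known. Values are given for members of at least 20 CPM in a class, members past the rule are named, except an item that is counted in all totals but not reported here, and so are the 3 list genes of largest ratio in a comparison; other list genes were named after their values were seen. Partner lists hold both old and new symbols. On counts simulated for the optic vesicle against surface ectoderm comparison over 14699 genes, 99.5% of 200 genes changed 4-fold were called and 0% of the others. All libraries were drawn from a single profile with counting error only, and only genes of at least 20 CPM were changed. Spread between embryos or libraries was left out, so these shares do not give the error rate of the reported calls. Alternatives are in the closing section. Positions come from GENCODE vM21 (GRCm38), which matched all 56 symbols. Python 3.11.15, scipy 1.17.1 and pandas 2.3.3 were used.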

Additional observations from a re-analysis of the deposited data

How the results depend on the processing

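No paired analysis was possible because the labels give no replicate numbers that groups share and each stage has 1 embryo. Of 40 ratios of named members, 31 kept their direction and their side of the rule under every setting run and 9 did not. Keeping doublets, and Leiden resolution 2, each left 1 member higher in optic vesicle than in surface ectoderm (2 as reported, Cdh2 lost). These settings, and allowing members and lists in the clustering, left 1 member lower than in mesenchyme (2 as reported, Cldn11 lost) for optic vesicle, surface ectoderm and endothelium alike, and gave 2 lower in crest mesenchyme than in head mesoderm (1 as reported, Cdh2 added). Weighting libraries equally also gave those 2, and with members allowed or equal weights 0 members were lower in ventral neuroepithelium than in optic vesicle (1 as reported). Between migratory crest and crest mesenchyme (0 in both directions as reported), equal weights gave 1 higher and 1 lower, and a limit of 10 CPM, or totals without ribosomal, mitochondrial and haemoglobin genes, gave 1 lower (Cldn11). The latter pair gave 1 lower in pigment epithelium than in neural retina (0 as reported).

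Leaving out 1 library at a time gave 1 to 2 members higher in vesicle than ectoderm, 1 to 2 lower than mesenchyme in each of vesicle, ectoderm and endothelium, 0 to 1 lower in ventral neuroepithelium, 0 to 1 lower in migratory crest and 0 to 2 lower in crest mesenchyme. The migratory crest to crest mesenchyme ratio of Cdh2 was 1.02 as reported, turned to 0.976 with the reduced totals, and ran from 0.855 to 1.65 with 1 library left out, below 1 without library 2, 3 or 4. Of 48 gene and class pairs seen in at least 50% of cells, 19 were still so after thinning to 10000 UMIs. The cause of these changes was not tested. Pigment epithelium against neural retina could not be run without library 5, which alone holds both. With 1 embryo per stage and no stage named for a library, differences between libraries cannot be told apart from differences between embryos, stages or dissections.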
